A study of Mus musculus with 8 samples.

Results

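The genes described here are the potassium and calcium channel genes of the mouse array, measured in splenic XCR1+ dendritic cells. They were taken as every gene whose symbol begins with Kcn and a letter, or with Cacna, Cacnb or Cacng, and which a line of the array annotation names alone. This gave 116 genes on 121 probe sets, of 19938 genes in all. The 5 genes with more than 1 probe set (Cacna2d1, Cacng2, Kcna2, Kcnh8 and Kcnma1) were represented by the probe set with the highest mean. Most members encode pore-forming or auxiliary subunits, and 3 are RNAs annotated opposite to a channel gene (Kcnd3os, Kcnmb4os1 and Kcnmb4os2).

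The study asked, by its title, whether some XCR1+ dendritic cells mature in the spleen at steady state. All samples came from untreated mice carrying the Il12b-EYFP reporter, in which yellow fluorescent protein marks cells that use the Il12b gene. Neither the age nor the background strain of the mice is stated in the labels used. Cells were sorted as Lin-, Bst2-/low, CD11c high and CD8α+, and then by CCR7, the receptor that guides maturing dendritic cells towards T cell zones, and by the reporter. The 3 groups were CCR7+ and EYFP+ cells (CCR7+Il12b+, n = 2), CCR7+ and EYFP- cells (CCR7+Il12b-, n = 3) and cells negative for both (immature, n = 3). Each sample was hybridised to 1 array. Whether replicates of a group came from different mice is not stated, so the p-values reflect only the variation among these arrays, part or all of which may be technical.

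Potassium channels set the resting membrane potential, and in leukocytes potassium leaving the cell maintains the electrical drive for calcium entry and is one of the triggers of the NLRP3 inflammasome. Voltage-gated calcium channels consist of a pore subunit that beta and alpha-2-delta subunits bring to the membrane and tune, and are best known from nerve, muscle and endocrine cells. Several gamma subunits serve mainly as partners of glutamate receptors in the brain.

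Levels are log2 expression values, and differences between groups are differences of mean log2 values with the standard error (SE) of a limma model fitted to all 19938 genes and all 8 arrays. A gene is called higher or lower at a Benjamini-Hochberg adjusted p under 0.05 over all genes. The background mark was 4.98, the 95th percentile of the means of 1190 olfactory and vomeronasal receptor genes, which sensory neurons use. Where the lower group of a comparison averaged below the mark, the fold change is given as a bound, "at least", and below the mark in both groups no fold is given. Levels of different genes rest on different probes and are not ranked against each other.

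The sort genes and the markers of the sorted cell type were checked first. Ccr7 averaged 12.61 in CCR7+Il12b+ arrays and 12.22 in CCR7+Il12b- arrays, against 8.64 in immature arrays, and Il12b averaged 12.28 in CCR7+Il12b+ and 10.81 in CCR7+Il12b- arrays, against 7.03 in immature arrays. All 10 listed markers of XCR1+ dendritic cells were above the mark, and Xcr1 averaged 7.88 in CCR7+Il12b+ and 9.54 in CCR7+Il12b- arrays, against 10.90 in immature arrays. CCR7+Il12b- replicate 3 stood apart from its group on the first principal component of all genes, at 30.1 against 8.21 and 13.4 for the other CCR7+Il12b- arrays. The CCR7+Il12b+ arrays lay at 52.2 and 53.6 and the immature arrays between -55.8 and -47.8. Counts are therefore also given without that array. The medians of all probe sets were 5.39 and 5.46 in CCR7+Il12b+, 5.36 to 5.41 in CCR7+Il12b- and 5.25 to 5.33 in immature arrays. Every matured array thus lay above every immature one. The medians of the genes tested were 5.45 and 5.56 in CCR7+Il12b+, 5.52 to 5.53 in CCR7+Il12b- and 5.45 to 5.48 in immature arrays.

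The promoters of Cacna1e, Cacnb1 and Kcnip3 are printed because these genes, with Kcnk6, had the largest differences of all called channel genes. They are RefSeq sequences of the GRCm38.p6 assembly, each of 300 bases around a transcription start, written 5′ to 3′ on the minus strand that carries the gene. The windows are chr1:154725871-154726170 for Cacna1e, chr11:98022578-98022877 for Cacnb1 and chr2:127522045-127522344 for Kcnip3. Cacnb1 has 2 and Kcnip3 has 3 listed starts, and the farthest upstream is shown. Capitals mark matches on either strand to the kappaB letters GGGNNNNNCC or the AP-1 letters TGANTCA, motifs bound by factor families active in maturing dendritic cells.
Cacna1e: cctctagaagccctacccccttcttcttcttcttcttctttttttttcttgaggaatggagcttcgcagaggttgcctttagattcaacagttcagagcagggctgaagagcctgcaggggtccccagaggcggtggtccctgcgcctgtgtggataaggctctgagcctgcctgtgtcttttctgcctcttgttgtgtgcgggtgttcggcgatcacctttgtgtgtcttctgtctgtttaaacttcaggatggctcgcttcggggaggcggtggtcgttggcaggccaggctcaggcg
Cacnb1: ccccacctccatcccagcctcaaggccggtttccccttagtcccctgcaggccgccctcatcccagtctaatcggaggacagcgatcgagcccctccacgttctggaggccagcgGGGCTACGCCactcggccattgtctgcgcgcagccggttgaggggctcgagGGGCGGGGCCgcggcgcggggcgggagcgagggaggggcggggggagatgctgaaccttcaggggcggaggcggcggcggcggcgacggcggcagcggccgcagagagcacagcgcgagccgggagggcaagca
Kcnip3: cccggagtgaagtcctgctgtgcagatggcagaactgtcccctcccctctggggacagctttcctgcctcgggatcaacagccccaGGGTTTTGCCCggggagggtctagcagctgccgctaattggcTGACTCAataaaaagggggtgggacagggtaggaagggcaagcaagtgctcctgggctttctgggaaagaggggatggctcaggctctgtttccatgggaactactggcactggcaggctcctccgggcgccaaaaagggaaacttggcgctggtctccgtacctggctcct
Cacnb1 had 2 kappaB matches, Kcnip3 had 2 that overlap on opposite strands and 1 AP-1 match, and Cacna1e had neither. The kappaB letters occur in 50.8% and the AP-1 letters in 7.81% of all 32851 listed promoters of this length. Counted per gene, in at least 1 of its windows, 62 of 88 channel genes with a listed promoter (70.5%) had a kappaB and 5 (5.68%) an AP-1 match, against 53.5% and 8.97% of all 27025 genes with a listed promoter. Among those called in the same direction in both matured fractions, 7 of 11 higher and 4 of 5 lower genes had a kappaB match. A match is a run of letters, not a site of binding. Kcnk6 is not in the promoter table.

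Of the 116 channel genes, 57 (49.1%) had a group mean above the receptor mark in at least 1 group, against 64.8% of all genes. The mark was passed by 55 genes in CCR7+Il12b+ arrays, 51 in CCR7+Il12b- arrays and 44 in immature arrays. Of all genes, 62.2%, 61.9% and 59.8% passed in these groups. In all 3 groups it was passed by 43 (37.1%), against 57.5% of all genes. The receptors' 95th percentile on single arrays was 4.99 and 5.19 in CCR7+Il12b+, 4.99 to 5.10 in CCR7+Il12b- and 4.81 to 4.98 in immature arrays. A single mark is therefore easier to pass in the matured fractions, and these counts include that offset. Of the two-pore potassium channels, which leak potassium at rest, 9 of 14 passed, as did 18 of 35 voltage-gated potassium pores, 5 of 10 calcium pores and 5 of 7 calcium channel gamma subunits. The alpha-2-delta subunits had 2 of 4 above the mark and the beta subunits 2 of 3. Inward rectifiers passed in 5 of 15, partners of voltage-gated potassium channels in 4 of 13, and calcium- or sodium-activated potassium channels in 4 of 12. All 3 opposite-strand RNAs were above it. The mark fell among closely spaced genes: Cacna1b, Kcnk13 and Kcnt1 lay just inside with highest group means of 5.05, 5.03 and 5.03, and Kcnj15, Cacna1d and Cacna1a just outside with 4.97, 4.94 and 4.93. At the 99th percentile of the receptors (5.93) 22 channel genes remained, and with the olfactory receptors alone as background 51 lay above the mark.

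**Figure D1:**
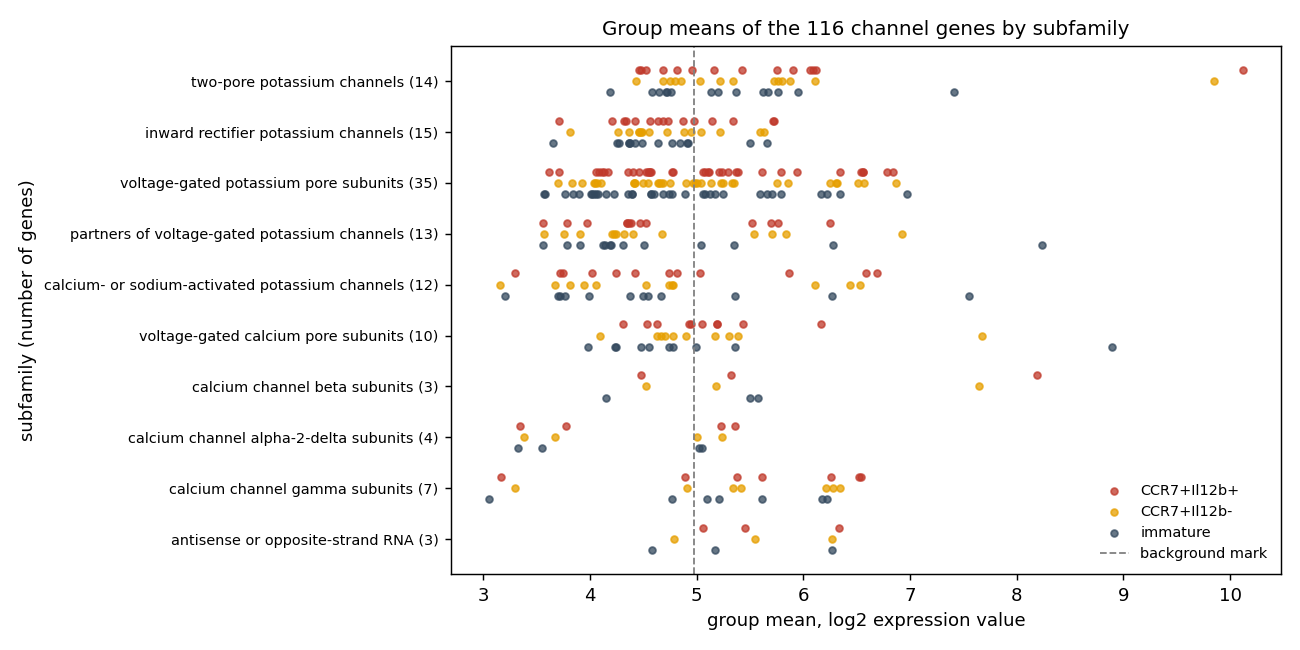
Mean log2 expression value of each channel gene in CCR7+Il12b+ (n = 2), CCR7+Il12b- (n = 3) and immature (n = 3) arrays, grouped by subfamily, with the background mark of 4.98 as a line. In all, 57 of 116 genes lie above the line in at least 1 group.

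In CCR7+Il12b- over immature arrays, 16 channel genes were called higher and 5 lower, together 18.1%, where 23.6% of all genes were called. By direction, 13.8% of the channel genes were higher and 4.31% lower, against 9.1% and 14.5% of all genes. In CCR7+Il12b+ over immature arrays, 22 were higher and 5 lower, together 23.3%, against a background of 32%. Here 19% of the channel genes were higher and 4.31% lower, against 14.1% and 17.9% of all genes. Between the matured fractions, CCR7+Il12b+ over CCR7+Il12b-, 1 gene was higher and 1 lower (1.72%), against 7.08% of all genes, of which 2.61% were higher and 4.47% lower. Without CCR7+Il12b- replicate 3 the counts were 10 higher and 5 lower in CCR7+Il12b- over immature, 24 higher and 5 lower in CCR7+Il12b+ over immature, and 2 higher and 2 lower in CCR7+Il12b+ over CCR7+Il12b-. With any other single array left out, CCR7+Il12b- over immature had 10 higher genes without immature replicate 2 and 9 without immature replicate 3, and CCR7+Il12b+ over immature had 13 higher genes without CCR7+Il12b+ replicate 2. After quantile normalization of the genes CCR7+Il12b- over immature gave 11 higher and 6 lower and CCR7+Il12b+ over CCR7+Il12b- 4 higher and 1 lower, and after cyclic loess CCR7+Il12b+ over CCR7+Il12b- gave 1 higher and 2 lower. Centring each array on its median gave 11 higher and 5 lower in CCR7+Il12b- over immature, and 20 higher and 5 lower in CCR7+Il12b+ over immature. Both comparisons with immature cells use the same 3 immature arrays.

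Most channel genes moved little. Their median log2 difference was 0.16 in CCR7+Il12b- over immature, 0.22 in CCR7+Il12b+ over immature and 0.06 between the matured fractions, against medians of 0.06, 0.09 and 0.02 over all genes. The receptor genes that set the mark had medians of 0.10 in CCR7+Il12b- over immature, 0.10 in CCR7+Il12b+ over immature and 0.01 in CCR7+Il12b+ over CCR7+Il12b-. Differences above 0 were seen for 98 of the 116 channel genes (84.5%) in CCR7+Il12b- over immature, against 60.6% of all genes and 80.2% of the receptor genes. They were seen for 103 (88.8%) in CCR7+Il12b+ over immature, against 62.6% of all and 79.0% of receptor genes, and in CCR7+Il12b+ over CCR7+Il12b- for 76 (65.5%), against 54.2% and 53.2%. A 2-fold difference was reached by 6 called channel genes in CCR7+Il12b- over immature, 2 higher (1.72%) and 4 lower (3.45%), against 2.89% and 3.21% of all genes. The count in CCR7+Il12b+ over immature was 8, with 4 higher and 4 lower (3.45% each), against 4.51% and 8.21% of all genes. Between the matured fractions, CCR7+Il12b+ over CCR7+Il12b-, 0 were 2-fold higher and 1 lower (0.862%), against 0.466% and 1.52% of all genes. Some called genes lay below the mark in both groups compared, 6 in CCR7+Il12b- and 5 in CCR7+Il12b+ over immature, every one of them higher: Cacna1d, Cacna1c, Kcng3, Cacnb4, Kcnb2 and Kcna6 in CCR7+Il12b- cells, and Cacna1d, Kcnj9, Kcng3, Kcna1 and Kcna6 in CCR7+Il12b+ cells. With only genes above the mark in a compared group, 15 of 52 channel genes (28.8%) were called in CCR7+Il12b- over immature, 22 of 56 (39.3%) in CCR7+Il12b+ over immature and 2 of 56 (3.57%) in CCR7+Il12b+ over CCR7+Il12b-, against 35.9%, 46.8% and 10.9% of all genes above it.

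**Figure D2:**
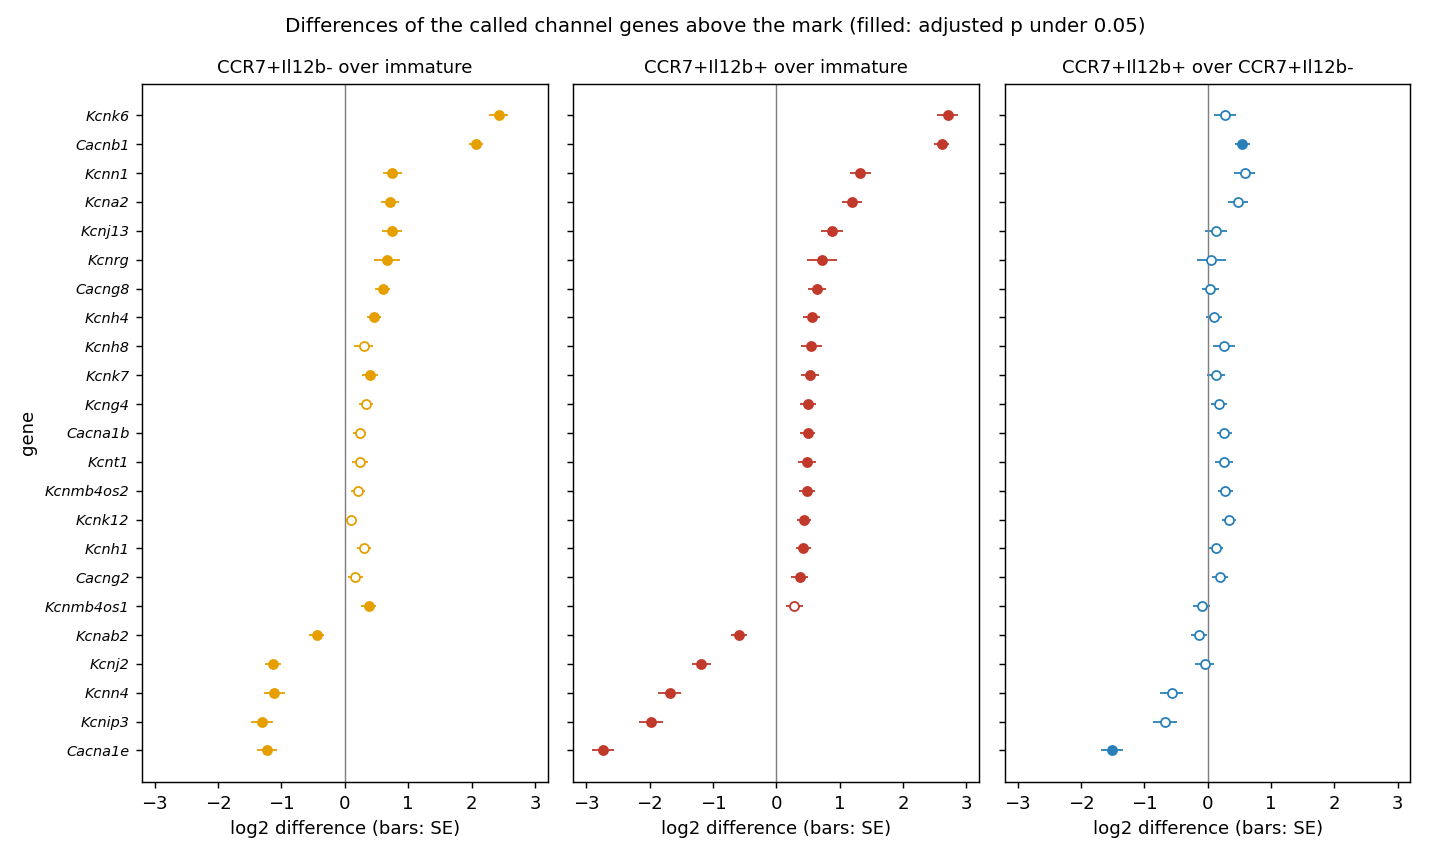
Log2 difference with its SE for the 23 channel genes called and above the mark in at least 1 comparison, in a panel each for CCR7+Il12b- over immature, CCR7+Il12b+ over immature and CCR7+Il12b+ over CCR7+Il12b-, with filled points for called differences. Kcnk6 and Cacnb1 (higher) and Cacna1e (lower) stand farthest out in CCR7+Il12b+ over immature, at 2.70, 2.61 and -2.74, and the panel between the matured fractions has 2 filled points, Cacnb1 and Cacna1e.

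Among the voltage-gated calcium pores, Cacna1e fell with maturation. It encodes the pore of R-type channels, known from neurons and endocrine cells. Its level was 6.18 and 6.14 in CCR7+Il12b+ arrays, 7.65, 7.97 and 7.41 in CCR7+Il12b- arrays, and 9.11, 8.92 and 8.66 in immature arrays. The 3 groups did not overlap, with CCR7+Il12b+ cells lowest. The difference was -2.74 ± 0.17 (SE) in CCR7+Il12b+ over immature (6.66-fold lower, adjusted p = 6.941e-07) and -1.22 ± 0.16 in CCR7+Il12b- over immature (2.33-fold lower, adjusted p = 0.0002239). Cacna1e was also the 1 channel gene called lower between the matured fractions, with a difference of -1.51 ± 0.17 (2.85-fold lower, adjusted p = 0.0006678). In bulk samples, fewer cells that carry a transcript and less of it per cell cannot be told apart.

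Of the other calcium pores, Cacna1b, the N-type pore of nerve terminals, had 5.05 ± 0.14 (SD, n = 2) in CCR7+Il12b+ arrays against 4.55 ± 0.05 (n = 3) in immature arrays, below the mark, and was at least 1.05-fold higher (adjusted p = 0.0079). Cacna1h, a T-type pore that opens near the resting potential, averaged 5.43 in CCR7+Il12b+, 5.38 in CCR7+Il12b- and 5.36 in immature arrays. It differed from immature arrays by 0.07 in CCR7+Il12b+ (adjusted p = 0.7052) and by 0.02 in CCR7+Il12b- arrays (adjusted p = 0.9208).

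Cacnb1 moved the opposite way. It encodes a beta subunit, the intracellular partner of calcium channel pores that is known from skeletal muscle. Its level was 8.28 and 8.10 in CCR7+Il12b+ arrays, 7.77, 7.55 and 7.62 in CCR7+Il12b- arrays, and 5.52, 5.64 and 5.57 in immature arrays. Again the 3 groups did not overlap, here with CCR7+Il12b+ cells highest. It was 2.61 ± 0.12 higher in CCR7+Il12b+ over immature (6.11-fold, adjusted p = 6.968e-08) and 2.07 ± 0.11 higher in CCR7+Il12b- over immature (4.19-fold, adjusted p = 3.042e-07). The smaller difference between the matured fractions, 0.54 ± 0.12, was called (adjusted p = 0.0205), but not without CCR7+Il12b+ replicate 1 (0.45, adjusted p = 0.1271) or CCR7+Il12b- replicate 2 (0.49, adjusted p = 0.08221).

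The second beta subunit above the mark, Cacnb2, averaged 5.32 in CCR7+Il12b+, 5.18 in CCR7+Il12b- and 5.50 in immature arrays and was not called over immature (adjusted p = 0.4138 for CCR7+Il12b+ and 0.126 for CCR7+Il12b- cells). Neither alpha-2-delta subunit above the mark was called. Cacna2d2 differed by 0.31 and 0.19 (adjusted p = 0.06798 and 0.2473) in CCR7+Il12b+ and CCR7+Il12b- over immature, and Cacna2d4 by 0.20 in CCR7+Il12b+ and -0.02 in CCR7+Il12b- over immature (adjusted p = 0.3563 and 0.9316). Alpha-2-delta subunits sit outside the membrane and raise the number of channels at the surface.

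Cacng8 was the gamma subunit that rose in both matured fractions. It is best known as a partner of AMPA-type glutamate receptors in the hippocampus. Its level was 6.10 and 6.41 in CCR7+Il12b+ arrays, 6.28, 6.20 and 6.16 in CCR7+Il12b- arrays, and 5.50, 5.53 and 5.81 in immature arrays. Every matured array was above every immature one, by 0.64 ± 0.14 in CCR7+Il12b+ (1.56-fold, adjusted p = 0.003921) and 0.60 ± 0.12 in CCR7+Il12b- cells (1.51-fold, adjusted p = 0.004694) on average. Cacng2, also a glutamate receptor partner, was called in CCR7+Il12b+ over immature (0.37 ± 0.13, adjusted p = 0.04773), but not with the mean of its 2 probe sets (0.32, adjusted p = 0.09657). Cacng4 was not called, with 0.30 in CCR7+Il12b+ and 0.06 in CCR7+Il12b- over immature (adjusted p = 0.2144 and 0.8046).

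The two-pore potassium channels were led by Kcnk6. It encodes a leak channel, known in mouse macrophages as a route of the potassium efflux that precedes inflammasome activation. Its level was 10.22 and 10.02 in CCR7+Il12b+ arrays, 9.56, 9.90 and 10.09 in CCR7+Il12b- arrays, and 7.27, 7.36 and 7.61 in immature arrays. Every matured array was above every immature one, and the matured fractions overlapped. Kcnk6 was 2.70 ± 0.17 higher in CCR7+Il12b+ over immature (6.52-fold, adjusted p = 5.692e-07) and 2.43 ± 0.15 higher in CCR7+Il12b- over immature (5.40-fold, adjusted p = 1.125e-06). The matured fractions differed by 0.27 ± 0.17 (adjusted p = 0.4637).

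Other two-pore genes moved much less. Kcnk7, whose product has not been found to pass current on its own, was 0.53 higher in CCR7+Il12b+ (adjusted p = 0.01409) and 0.39 higher in CCR7+Il12b- over immature (adjusted p = 0.04434). Kcnk12, a halothane-inhibited family member, was higher in CCR7+Il12b+ over immature (0.44 ± 0.11, 1.35-fold, adjusted p = 0.008745). In CCR7+Il12b- over immature it differed by 0.10 (adjusted p = 0.497), and its direct difference of 0.33 between the matured fractions was not called (adjusted p = 0.09973). Kcnk15 was not called in CCR7+Il12b+ or CCR7+Il12b- over immature (0.16 in both, adjusted p = 0.4044 and 0.4167).

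**Figure D3:**
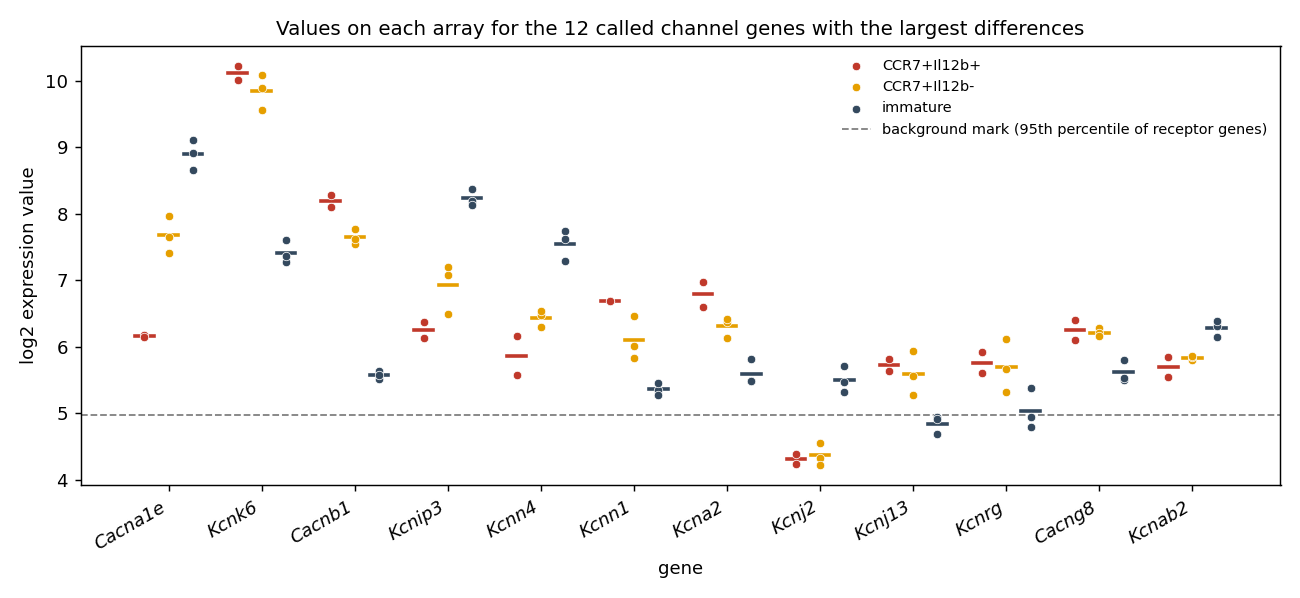
Log2 expression value of the 12 called channel genes with the largest differences, 1 point per array, in CCR7+Il12b+, CCR7+Il12b- and immature groups, with the background mark of 4.98. Kcnk6 and Cacnb1 lie higher in every matured array than in every immature one, and Cacna1e, Kcnip3 and Kcnn4 lower.

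Of 12 calcium- or sodium-activated potassium channels, 2 were called higher and 1 lower in CCR7+Il12b+ over immature, and 9 were not called. In CCR7+Il12b- over immature, 1 was higher, 1 lower and 10 not called. The shares of all genes were 14.1% higher and 17.9% lower in CCR7+Il12b+ over immature, and 9.1% and 14.5% in CCR7+Il12b- over immature. Kcnn4 encodes the intermediate-conductance channel that calcium opens in T cells and other leukocytes. Its level was 5.58 and 6.16 in CCR7+Il12b+ arrays, 6.47, 6.54 and 6.30 in CCR7+Il12b- arrays, and 7.29, 7.74 and 7.62 in immature arrays. No matured array reached the lowest immature one. Its difference was -1.68 ± 0.18 in CCR7+Il12b+ (3.21-fold lower, adjusted p = 3.351e-05) and -1.11 ± 0.16 in CCR7+Il12b- over immature (2.16-fold lower, adjusted p = 0.000596). The step between the matured fractions, -0.57 ± 0.18, was not called (adjusted p = 0.1016), although their arrays did not overlap.

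Kcnn1, a small-conductance calcium-activated channel best known from neurons, was higher. It stood at 6.69 and 6.68 in CCR7+Il12b+ arrays, 5.84, 6.02 and 6.47 in CCR7+Il12b- arrays, and 5.36, 5.45 and 5.28 in immature arrays. The groups did not overlap, and CCR7+Il12b- replicate 3 was the highest of its group. Kcnn1 was 1.33 ± 0.17 higher in CCR7+Il12b+ (2.51-fold, adjusted p = 9.392e-05) and 0.75 ± 0.15 higher in CCR7+Il12b- over immature (1.68-fold, adjusted p = 0.00387). Its difference of 0.58 between the matured fractions had adjusted p = 0.06469. Kcnt1, which sodium opens, averaged 5.03 in CCR7+Il12b+ against 4.54 in immature arrays, below the mark, and was at least 1.04-fold higher (adjusted p = 0.02331). Kcnmb3, an auxiliary subunit of large-conductance channels, was not called (0.32 in CCR7+Il12b+ and 0.26 in CCR7+Il12b- over immature, adjusted p = 0.1057 and 0.1641).

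Voltage-gated potassium pores gave 8 higher and 0 lower genes of 35 in CCR7+Il12b+ over immature, and 5 higher and 0 lower in CCR7+Il12b- over immature. Of all genes, 14.1% were higher and 17.9% lower in CCR7+Il12b+ over immature, and 9.1% and 14.5% in CCR7+Il12b- over immature. Below the mark in both groups compared were 3 of the 8 (Kcng3, Kcna1 and Kcna6) and 3 of the 5 (Kcng3, Kcnb2 and Kcna6). Kcna2, a delayed-rectifier pore of axons, had 6.97 and 6.61 in CCR7+Il12b+ arrays, 6.14, 6.37 and 6.42 in CCR7+Il12b- arrays, and 5.48, 5.81 and 5.49 in immature arrays. Its groups did not overlap. It was 1.19 ± 0.16 higher in CCR7+Il12b+ (2.29-fold, adjusted p = 0.0001283) and 0.71 ± 0.14 higher in CCR7+Il12b- over immature (1.64-fold, adjusted p = 0.00345). The other Kcna2 probe set, at a mean of 4.95, gave 0.94 in CCR7+Il12b+ and 0.21 in CCR7+Il12b- over immature.

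Kcna3, the delayed-rectifier pore that sets the membrane potential of T lymphocytes, did not pass the test. It had 6.78 and 6.90 in CCR7+Il12b+ arrays, 6.89, 6.85 and 6.88 in CCR7+Il12b- arrays, and 6.99, 7.05 and 6.89 in immature arrays. These 8 values overlap across groups. Its differences over immature were -0.13 ± 0.11 (adjusted p = 0.3856) in CCR7+Il12b+ and -0.10 ± 0.10 (adjusted p = 0.5088) in CCR7+Il12b- cells.

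Kcnh4, a pore of the ether-a-go-go family, was higher in CCR7+Il12b+ (0.56, adjusted p = 0.006168) and in CCR7+Il12b- over immature (0.46, adjusted p = 0.01391). Its relatives Kcnh8 and Kcnh1 were called in CCR7+Il12b+ over immature, as at least 1.24-fold (adjusted p = 0.02718) and at least 1.09-fold higher (adjusted p = 0.01694), with immature means below the mark. The other Kcnh8 probe set, at a mean of 4.37, gave 0.21 in CCR7+Il12b+ and 0.22 in CCR7+Il12b- over immature, and with the mean of both probe sets Kcnh8 was not called in CCR7+Il12b+ over immature (0.38, adjusted p = 0.0527). Kcng4, a pore subunit that works only together with other subunits, was at least 1.07-fold higher there (adjusted p = 0.009453). Kcng1, of the same silent class, was not called (0.21 in CCR7+Il12b+ and 0.23 in CCR7+Il12b- over immature, adjusted p = 0.2229 and 0.1853).

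Of 13 partners of voltage-gated potassium channels, 1 was called higher and 2 lower in each matured fraction over immature, and 10 were not called. Of all genes, 14.1% were higher and 17.9% lower in CCR7+Il12b+ over immature, and 9.1% and 14.5% in CCR7+Il12b- over immature. Kcnip3 encodes a calcium-binding protein that attaches to A-type channels and has also been described as a transcriptional repressor. Its level was 6.37 and 6.13 in CCR7+Il12b+ arrays, 7.08, 7.20 and 6.50 in CCR7+Il12b- arrays, and 8.20, 8.37 and 8.13 in immature arrays. The 3 groups did not overlap, and CCR7+Il12b- replicate 3 lay nearest to CCR7+Il12b+ cells. The difference was -1.98 ± 0.19 in CCR7+Il12b+ over immature (3.95-fold lower, adjusted p = 1.405e-05) and -1.31 ± 0.17 in CCR7+Il12b- over immature (2.47-fold lower, adjusted p = 0.0002798). Between the matured fractions it was -0.67 ± 0.19 (adjusted p = 0.06392).

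Kcnab2, the cytoplasmic beta subunit that binds delayed-rectifier pores, had 5.55 and 5.84 in CCR7+Il12b+ arrays, 5.81, 5.84 and 5.86 in CCR7+Il12b- arrays, and 6.14, 6.32 and 6.38 in immature arrays. All matured arrays were below all immature ones, with mean differences of -0.59 ± 0.13 in CCR7+Il12b+ (1.5-fold lower, adjusted p = 0.004136) and -0.45 ± 0.11 in CCR7+Il12b- cells (1.36-fold lower, adjusted p = 0.01504). Kcnrg, a soluble protein that hinders assembly of voltage-gated potassium channels, had 5.61 and 5.92 in CCR7+Il12b+ arrays, 5.32, 6.12 and 5.67 in CCR7+Il12b- arrays, and 4.80, 5.39 and 4.94 in immature arrays. CCR7+Il12b- and immature arrays overlapped. Kcnrg was called higher by 0.72 ± 0.23 in CCR7+Il12b+ (adjusted p = 0.0341) and 0.66 ± 0.21 in CCR7+Il12b- over immature (adjusted p = 0.03892).

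Of 15 inward rectifiers, which pass potassium most readily near and below the resting potential, most were not called. In CCR7+Il12b+ over immature 2 were higher and 1 lower, where 14.1% and 17.9% of all genes were. In CCR7+Il12b- over immature 1 was higher and 1 lower, against 9.1% and 14.5% of all genes. Kcnj2 and Kcnj13 changed in opposite directions. Kcnj2, the classical inward rectifier of heart and muscle, had 4.40 and 4.25 in CCR7+Il12b+ arrays, 4.55, 4.33 and 4.22 in CCR7+Il12b- arrays, and 5.47, 5.32 and 5.71 in immature arrays. Its group mean was above the mark in immature arrays alone and at least 1.44-fold lower in both CCR7+Il12b+ (adjusted p = 8.721e-05) and CCR7+Il12b- cells (adjusted p = 0.0001241).

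Kcnj13, an inward rectifier of the retinal pigment epithelium and choroid plexus, had 5.64 and 5.81 in CCR7+Il12b+ arrays, 5.28, 5.56 and 5.93 in CCR7+Il12b- arrays, and 4.95, 4.91 and 4.69 in immature arrays. Its immature arrays were all below the mark and its matured arrays all above. It was at least 1.68-fold higher in CCR7+Il12b+ (adjusted p = 0.002571) and at least 1.53-fold higher in CCR7+Il12b- cells (adjusted p = 0.005462). Kcnj11, the pore of ATP-sensitive channels, was not called (0.06 in CCR7+Il12b+ and -0.03 in CCR7+Il12b- over immature, adjusted p = 0.7468 and 0.8892).

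The opposite-strand RNAs gave small differences. The sources used here do not say whether their probe sets exclude the overlapping channel transcript. Kcnmb4os1 was called in CCR7+Il12b- over immature (0.37, adjusted p = 0.04308), and differed by 0.28 in CCR7+Il12b+ over immature (adjusted p = 0.137). Kcnmb4os2 was at least 1.06-fold higher in CCR7+Il12b+ over immature (adjusted p = 0.009485). Kcnd3os was not called (0.06 in CCR7+Il12b+ and -0.01 in CCR7+Il12b- over immature, adjusted p = 0.7744 and 0.9722).

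Several of the smaller calls were lost when a single array was left out, which also lowers the degrees of freedom of the fit. A lost call therefore does not show that the difference came from that array. In CCR7+Il12b- over immature, Kcnk7 lost its call without either CCR7+Il12b+ array, with its difference unchanged at 0.39. In CCR7+Il12b- over immature, Kcnh4 was not called without CCR7+Il12b- replicate 2 (adjusted p = 0.06223), immature replicate 2 (0.05426) or immature replicate 3 (0.06662), and Kcnab2 not without immature replicate 2 (0.0636) or 3 (0.07458). In CCR7+Il12b+ over immature, leaving out CCR7+Il12b+ replicate 2 ended the calls of Kcng4 (adjusted p = 0.07814), Cacna1b (0.06937), Kcnk7 (0.09303), Kcnh8 (0.2825), Kcnh1 (0.06149), Kcnt1 (0.09701), Kcnrg (0.2408) and Cacng2 (0.2119). Leaving out CCR7+Il12b+ replicate 1 ended those of Kcnh1 (0.05505), Kcnt1 (0.07139), Kcnrg (0.05161) and Cacng2 (0.06936). Some of these were also lost without 1 immature array: Kcnk7 without replicate 2 (0.05593), Kcnh8 without replicate 2 (0.07549) or 3 (0.09396), Kcnh1 without replicate 3 (0.06905), Kcnt1 without replicate 3 (0.09083), Kcnrg without replicate 1 (0.09589) or 3 (0.09587), and Cacng2 without replicate 2 (0.1692) or 3 (0.1161). The calls of Kcnk7, Kcnrg and Kcnmb4os1 in CCR7+Il12b- over immature were ended by leaving out any of 7, 4 and 5 single arrays, CCR7+Il12b- replicate 3 among them (adjusted p = 0.1215, 0.0845 and 0.1498). With all 8 arrays kept, the same calls were also lost after median centring (adjusted p = 0.08523, 0.05484 and 0.07135). Quantile normalization of the genes ended them too (0.07868, 0.06062 and 0.08893). Kcnmb4os2 was not called in CCR7+Il12b+ over immature after cyclic loess (0.07295). No called difference of the channel, calcium and pump genes given with values changed sign under the alternatives tried. Channel genes called below the mark in both groups were not followed through them.

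Markers of other cell types were read on the same arrays, each list as the log2 of its summed linear values. The B cell list, with 4 of 7 genes above the mark and Cd79a, Ebf1 and Cr2 below it, ranged from 8.72 to 8.77 in CCR7+Il12b+, 9.16 to 9.60 in CCR7+Il12b- and 8.53 to 8.82 in immature arrays. The T cell list, with 4 of 7 above and Cd3d, Cd3g and Cd28 below, ranged from 7.73 to 8.01 in CCR7+Il12b+, 8.31 to 8.46 in CCR7+Il12b- and 8.16 to 8.25 in immature arrays. The NK cell list (3 of 7 above, with Ncr1, Klrb1c, Eomes and Gzma below) ran from 7.30 to 7.49 in CCR7+Il12b+, 7.88 to 8.47 in CCR7+Il12b- and 8.61 to 8.88 in immature arrays. For plasmacytoid dendritic cells (6 of 6 above) the sums were 9.40 to 9.42 in CCR7+Il12b+, 9.44 to 9.62 in CCR7+Il12b- and 9.96 to 10.24 in immature arrays. The CD11b+ dendritic cell list (5 of 7 above, Clec4a4 and Mgl2 below) gave 8.59 to 8.76 in CCR7+Il12b+, 9.19 to 9.48 in CCR7+Il12b- and 8.65 to 9.10 in immature arrays. The monocyte and macrophage list (6 of 8 above, Fcgr1 and Mertk below) gave 11.19 to 11.38 in CCR7+Il12b+, 11.25 to 11.57 in CCR7+Il12b- and 10.91 to 11.11 in immature arrays. The XCR1+ dendritic cell list itself gave 12.56 to 12.78 in CCR7+Il12b+, 13.27 to 13.59 in CCR7+Il12b- and 14.04 to 14.16 in immature arrays. The neutrophil list (5 of 7 above, Ly6g and Ngp below) gave 7.69 to 7.73 in CCR7+Il12b+, 7.62 to 7.84 in CCR7+Il12b- and 7.38 to 7.76 in immature arrays. The erythroid list (2 of 3 above, Epb42 below) gave 6.72 to 6.88 in CCR7+Il12b+, 6.73 to 6.85 in CCR7+Il12b- and 6.52 to 6.64 in immature arrays. The platelet and megakaryocyte list (3 of 5 above, Pf4 and Ppbp below) gave 7.54 to 7.90 in CCR7+Il12b+, 7.56 to 7.72 in CCR7+Il12b- and 7.35 to 7.49 in immature arrays. The plasmacytoid and XCR1+ dendritic cell sums lay lower in both matured fractions than in immature arrays. So did the channel genes called lower in both, Cacna1e, Kcnip3, Kcnn4, Kcnj2 and Kcnab2. The plasmacytoid list includes Bst2, a marker of the sort, which averaged 8.71 in CCR7+Il12b+, 8.71 in CCR7+Il12b- and 9.17 in immature arrays. Of the 6 plasmacytoid genes, 4 were called lower and 0 higher in each matured fraction. Of the 10 XCR1+ genes, 9 were called lower in CCR7+Il12b+ and 6 in CCR7+Il12b- over immature. For all list counts here, the shares of all genes were 14.1% higher and 17.9% lower in CCR7+Il12b+ over immature. They were 9.1% and 14.5% in CCR7+Il12b- over immature. Batf3, of the XCR1+ list, was called higher in CCR7+Il12b+ (0.89) and in CCR7+Il12b- over immature (0.54). The NK cell sum also lay lower, but Klrd1 was the 1 gene of that list called lower, with -3.41 in CCR7+Il12b+ and -1.03 in CCR7+Il12b- over immature, and Nkg7 differed by 0.37 (not called) and 0.54 (called). The monocyte and macrophage sum lay higher, but its members went both ways. Called in CCR7+Il12b+ over immature were 2 higher genes (Spic by 3.07, Vcam1 by 3.17) and 3 lower ones (Lyz2 -3.11, Ccr2 -2.43, Csf1r -0.58). Called in CCR7+Il12b- over immature were 3 higher genes (Spic by 3.15, Vcam1 by 2.57, Adgre1 by 0.69) and 2 lower ones (Lyz2 -1.45, Ccr2 -1.94). In CCR7+Il12b- over immature the B cell list had 3 genes called higher and 1 lower (Ms4a1 1.51, Fcrla -1.16). The CD11b+ dendritic cell list had 2 higher and 1 lower there (Sirpa 1.08, Cd209a -1.02). The erythroid and platelet sums lay higher with 1 called gene each, Alas2 (0.55 in CCR7+Il12b+ and 0.46 in CCR7+Il12b- over immature) and Gp9 (0.47 and 0.40). The part of these cell types in the channel differences was not tested.

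Channels act together with other proteins of membrane potential and calcium handling. For these, 91 gene symbols were listed, among them earlier symbols of a listed gene (Tmem110 for Stimate, Ccdc109b for Mcub), and 79 were measured. In CCR7+Il12b+ over immature, 13 were higher and 22 lower (44.3%), in CCR7+Il12b- over immature 14 higher and 16 lower (38.0%), and between the matured fractions 2 higher and 7 lower (11.4%). The background shares of all genes are those given above, 32% in CCR7+Il12b+ over immature, 23.6% in CCR7+Il12b- over immature and 7.08% in CCR7+Il12b+ over CCR7+Il12b-. The calcineurin, NFAT and calmodulin kinase list had 2 higher and 8 lower of 21 in CCR7+Il12b+ over immature, where 14.1% of all genes were higher and 17.9% lower. It had 1 higher and 7 lower in CCR7+Il12b- over immature, where 9.1% and 14.5% of all genes were. Its median difference was -0.13 in CCR7+Il12b+ and -0.16 in CCR7+Il12b- over immature, against 0.09 and 0.06 over all genes. Camk1d, a calcium-activated kinase, fell by 2.98 in CCR7+Il12b+ and 1.38 in CCR7+Il12b- over immature (adjusted p = 9.326e-07 and 0.0002331), and Nfatc2, a calcineurin-dependent transcription factor, fell by 1.95 in CCR7+Il12b+ and 1.41 in CCR7+Il12b- over immature (adjusted p = 8.358e-06 and 9.745e-05). Nfat5, the family member that responds to osmotic stress rather than to calcineurin, was higher by 2.56 in CCR7+Il12b+ and 2.22 in CCR7+Il12b- over immature (adjusted p = 5.389e-07 and 1.394e-06).

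Of 12 pumps and exchangers, 1 was higher and 4 lower in CCR7+Il12b+ over immature, and 2 higher and 2 lower in CCR7+Il12b- over immature. The shares of all genes were 14.1% higher and 17.9% lower in CCR7+Il12b+ over immature, and 9.1% and 14.5% in CCR7+Il12b- over immature. Atp2b1, the plasma membrane pump that expels calcium, had 10.83 and 10.64 in CCR7+Il12b+ arrays, 9.61, 9.83 and 10.09 in CCR7+Il12b- arrays, and 8.40, 8.37 and 8.34 in immature arrays. Its groups did not overlap, and it was 2.36 higher in CCR7+Il12b+ and 1.48 higher in CCR7+Il12b- over immature (adjusted p = 5.049e-07 and 1.558e-05). Atp2c1, a Golgi pump, and Atp2a2, an endoplasmic reticulum pump, fell by 0.98 and 0.83 in CCR7+Il12b+ cells (adjusted p = 0.0008934 and 0.001291) and by 0.92 and 0.67 in CCR7+Il12b- cells (adjusted p = 0.001124 and 0.003787).

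Store-operated calcium entry showed 2 higher and 1 lower of 7 in CCR7+Il12b+ over immature and 1 higher and 1 lower in CCR7+Il12b- over immature. For this list and the release and uniporter lists, the shares of all genes were 14.1% higher and 17.9% lower in CCR7+Il12b+ over immature. In CCR7+Il12b- over immature they were 9.1% and 14.5%. Stimate, which promotes this entry, was higher by 0.85 in CCR7+Il12b+ and 0.95 in CCR7+Il12b- over immature (adjusted p = 0.001625 and 0.000661), and Saraf, which restrains it, fell by 0.99 in CCR7+Il12b+ and 0.53 in CCR7+Il12b- over immature (adjusted p = 0.001748 and 0.0417). The Saraf call in CCR7+Il12b- over immature was lost without CCR7+Il12b- replicate 2 or 3 or any 1 immature array (adjusted p from 0.06279 to 0.1445). Stim2, a sensor of stored calcium, was 0.41 higher in CCR7+Il12b+ over immature (adjusted p = 0.01943), but not called without CCR7+Il12b+ replicate 2, immature replicate 1 or immature replicate 2 (adjusted p = 0.1054, 0.05532 and 0.05547). The release list had 2 higher and 3 lower of 10 in CCR7+Il12b+ and 2 higher and 1 lower in CCR7+Il12b- over immature. In it, the receptor channel Itpr3 was higher in both (0.72 in CCR7+Il12b+ and 0.60 in CCR7+Il12b- over immature, adjusted p = 0.0008199 and 0.002229). In CCR7+Il12b+ over immature the lysosomal channel Mcoln1 was higher (0.79, adjusted p = 0.006973) and the endolysosomal channel Tpcn1 lower (-0.73, adjusted p = 0.006416), both not called without CCR7+Il12b+ replicate 1 (adjusted p = 0.069 and 0.05967). Of 5 mitochondrial uniporter genes, 2 were higher and 1 lower in CCR7+Il12b+ over immature, and 1 higher and 1 lower in CCR7+Il12b- over immature. The pore Mcu was higher (0.89 in CCR7+Il12b+ and 0.58 in CCR7+Il12b- over immature, adjusted p = 0.001387 and 0.01399; the second 0.05056 to 0.06106 without CCR7+Il12b- replicate 2 or 3 or immature replicate 1) and its small regulator Smdt1 lower (-1.38 in CCR7+Il12b+ and -0.97 in CCR7+Il12b- over immature, adjusted p = 2.104e-05 and 0.0002698). Mcur1, a regulator of the uniporter, was 1.05 higher in CCR7+Il12b+ over immature (adjusted p = 0.0005368).

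The TRP, P2X and Piezo list had 3 higher and 3 lower of 12 in CCR7+Il12b+ over immature and 4 higher and 2 lower in CCR7+Il12b- over immature. Among all genes 14.1% were higher and 17.9% lower in CCR7+Il12b+ over immature, and 9.1% and 14.5% in CCR7+Il12b- over immature. P2rx7, the ATP-gated channel that lets potassium out, fell by 1.17 in CCR7+Il12b+ and 0.93 in CCR7+Il12b- over immature (adjusted p = 6.348e-05 and 0.000322), and so did Trpv2 (-1.30 in CCR7+Il12b+ and -0.88 in CCR7+Il12b- over immature, adjusted p = 0.00167 and 0.01338; the second 0.0581 without immature replicate 2). The channel kinase Trpm7 was higher by 0.98 in CCR7+Il12b+ and 0.61 in CCR7+Il12b- over immature (adjusted p = 0.0002513 and 0.004697). Of 8 other voltage-gated channels, 1 was higher in CCR7+Il12b+ and 2 in CCR7+Il12b- over immature. The proton channel Hvcn1 had 6.62 and 6.58 in CCR7+Il12b+ arrays, 6.32, 6.36 and 6.55 in CCR7+Il12b- arrays, and 4.79, 5.21 and 5.20 in immature arrays. Every matured Hvcn1 value was above every immature one, by 1.53 in CCR7+Il12b+ (adjusted p = 1.378e-05) and by 1.34 in CCR7+Il12b- cells (adjusted p = 3.993e-05) on average.

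The sodium pump, which builds the potassium gradient, had 0 higher and 3 lower of 4 measured genes in CCR7+Il12b+ over CCR7+Il12b-. Among all genes 2.61% were higher and 4.47% lower there. Of the 3 lower calls, those of Atp1b3 and Fxyd5 were lost when any of 7 and 4 single arrays was left out. The list had 0 higher and 2 lower in CCR7+Il12b+ over immature, against 14.1% and 17.9% of all genes. In CCR7+Il12b- over immature it had 1 higher and 2 lower, against 9.1% and 14.5%. Its subunit gene Atp1b1 differed by -0.34 in CCR7+Il12b+ over immature (adjusted p = 0.1546) and was 0.83 higher in CCR7+Il12b- over immature (adjusted p = 0.002126). The direct difference was -1.16 ± 0.17 (adjusted p = 0.001939). Atp1b3 and the pump regulator Fxyd5 were lower in both matured fractions, with differences of -0.998 and -1.40 in CCR7+Il12b+ over immature (adjusted p = 0.0002943 and 2.801e-05) and of -0.45 and -0.73 in CCR7+Il12b- over immature (adjusted p = 0.03021 and 0.002207). Without any 1 of the CCR7+Il12b- arrays, or without immature replicate 2 or 3, the Atp1b3 call in CCR7+Il12b- over immature was lost (adjusted p from 0.05925 to 0.1336).

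**Figure D4:**
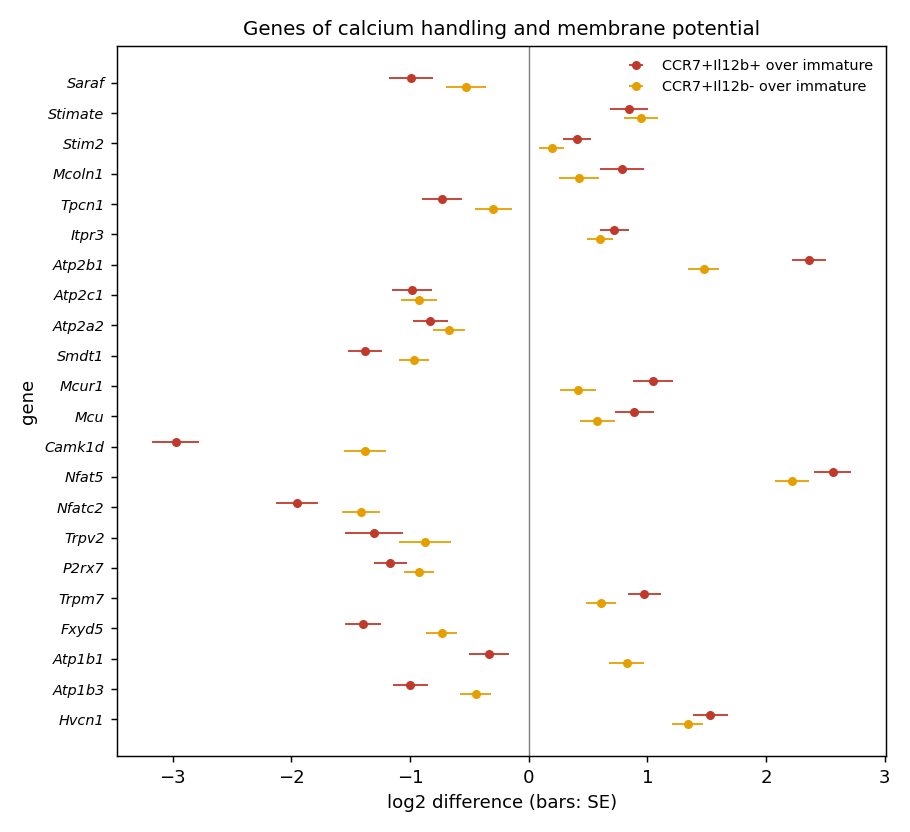
Log2 difference over immature of the named genes of calcium handling and membrane potential in CCR7+Il12b+ and CCR7+Il12b- cells, with SE bars. Camk1d lies lowest in CCR7+Il12b+ cells, at -2.98, against -1.38 in CCR7+Il12b- cells, and Nfat5 lies highest in both, at 2.56 for CCR7+Il12b+ and 2.22 for CCR7+Il12b- cells.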

How the data were processed

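Each of 8 sorted samples was hybridised to its own array. The RNA input was 3 or 20 ng, per the labels' protocols, with the amount per sample not given in the sources used here, and was amplified in 2 rounds and biotin-labelled. The deposited values are log2 expression values that the authors made with RMA in oligo, per the submitters' processing notes. For its options, versions and genome build nothing is stated there. Because RMA usually makes arrays alike in distribution, these values do not show changes in a cell's total RNA.

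The table held 35556 probe sets. The platform's annotation gives exactly 1 symbol for 21789, several for 1621 and none for 12146 in the table used, and only the first were analysed. A gene with several probe sets, of which there were 999, kept its highest by mean, for 19938 genes in all. All 116 channel gene identifiers were found in the gene table of GRCm38.p6, and promoters came from RefSeq with the same build.

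One model with 3 group means was fitted to all 8 arrays with lmFit and eBayes in limma 3.58.1 (R 4.3.3), with 5 residual degrees of freedom and 5.86 from the prior. Two-sided tests were used, with Benjamini-Hochberg adjustment over 19938 genes, and the fit was tested on simulated data. No gene was removed for low values. Bounds set each array of the dim group at the higher of its value and the mark. The number of arrays limits the precision.

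Genes named with values were the called channel genes above the background mark in a compared group (12 with the largest differences in full), the 2 genes of each subfamily with the highest mean above the mark, the sort genes, and at most 3 called genes above the mark per calcium list. Genes called below the mark and those next to the mark, named without a call of their own, were chosen after their values were seen. The channel genes, lists and markers were chosen with earlier results of these data known.

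Alternatives were the row choice, quantile and loess scaling and median centring, filters on dim genes, only the compared groups, array weights, replicate blocks, other background marks and leaving out each array.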

Additional observations from a re-analysis of the deposited data

Results flagged for a closer look

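The difference between CCR7+Il12b+ and CCR7+Il12b- cells passed limma's test for 8 of the named channel, calcium and pump genes. It is also the difference between their effects over the shared immature arrays. Most of these genes were named because they were called in at least 1 comparison, Atp1b1 through this one. The 8 are therefore not a share to set against the 7.08% of all genes called here. Among channel genes it was -1.51 for Cacna1e and 0.54 for Cacnb1 on the log2 scale. Among calcium and pump genes it was 0.89 for Atp2b1, 0.63 for Mcur1, -1.60 for Camk1d, -0.55 for Atp1b3 and -0.66 for Fxyd5. For Atp1b1 it was -1.16, with a mean below immature cells in CCR7+Il12b+ cells and above them in CCR7+Il12b- cells. For Cacnb1, Mcur1, Atp1b3 and Fxyd5 the call was lost when any of 2, 7, 7 and 4 single arrays was left out, with adjusted p up to 0.1271, 0.248, 0.2479 and 0.133: CCR7+Il12b+ replicate 1 in all 4 genes, CCR7+Il12b- replicate 2 likewise, CCR7+Il12b+ replicate 2 for Mcur1, Atp1b3 and Fxyd5, CCR7+Il12b- replicate 1 for Atp1b3 and Fxyd5, CCR7+Il12b- replicate 3 and immature replicates 2 and 3 for Mcur1 and Atp1b3, and immature replicate 1 for Mcur1.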

How the results depend on the processing

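Of 39 called differences of named channel genes, 24 were called under every alternative in which they were tested (all 19, or 18 for Kcnj2 and Kcnj13, which 1 filter on dim genes removed), 15 were lost under at least 1 and 0 reversed, and 11 of 63 uncalled differences were called under at least 1. Kcnk6, Cacna1e, Cacnb1, Kcnip3, Kcnn4, Kcnn1, Kcna2, Kcnj2, Kcnj13 and Cacng8 kept their calls over immature in both matured fractions. Of the 45 calls of calcium and pump genes, 35 were kept in every alternative tested (18 for Atp1b1). In CCR7+Il12b- over immature, the 16 higher genes became 10 and 7 with only genes above the mark or above the median gene, where fewer genes were tested, and 26 with array weights. In CCR7+Il12b+ over immature, the 22 higher genes became 9 with only genes above the median. Between the matured fractions, the 1 higher gene became 2 with the mean of a gene's probe sets, 4 after quantile normalization, 2 above the median and 0 with the compared groups alone, and the 1 lower gene became 2 after cyclic loess, under both filters and with array weights; the cause was not tested. Leaving out 1 array gave 9 to 16 higher and 4 to 5 lower genes in CCR7+Il12b- over immature, 13 to 26 and 5 in CCR7+Il12b+ over immature, and 0 to 2 and 1 to 2 between the matured fractions, and 56 to 59 genes above background. With vomeronasal receptors alone as background 91 genes stood above it, with olfactory receptors alone or each array's own mark 51, at the 90th percentile 76 and at the 99th 22.

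Deviations from the group means correlated between same-numbered replicates of different groups from -0.169 to 0.216, and between differently numbered ones from -0.216 to 0.187. Centring on groups of 2 or 3 arrays ties these deviations to each other. The correlations therefore cannot show whether same-numbered samples shared mice or handling. With the replicate number as a fixed block, limma called 13 higher and 5 lower genes in CCR7+Il12b- over immature, 20 and 5 in CCR7+Il12b+ over immature, and 0 and 2 between the matured fractions, where 9 had an unadjusted p under 0.05 without the block. As a random block (correlation -0.073) it gave 13 and 5, 21 and 5, and 1 and 1 in the same comparisons.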
